A study of Mus musculus with 8 samples.

Results

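The 36 genes described here were chosen by name for their place in the cell division cycle, with earlier results of these data known. The rule itself held no measured value, and all 36 genes were found among the 55401 genes of the count table. They fall into 9 genes of the G1 phase, 11 of DNA replication and 16 of mitosis, and all 36 passed the filter on low counts that left 17669 genes for testing. Livers of NOD Scid Gamma (NSG) mice, an immunodeficient strain, were sequenced from mice with a human colorectal cancer line growing under the skin, and the series asks how FGF19 released by a tumour alters the liver. Colo201, the line given as high in FGF19, was borne by the hosts of 4 libraries, and HCT116, given as low in FGF19, by the hosts of the other 4. All 8 libraries share the strain and the tissue, and every host had a tumour. Each line is thus 1 tumour line, FGF19 was not varied within it, and FGF19 cannot be told apart from other differences between the tumours.

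The library titles carry a number and a letter. Number 2 stands for Colo201 hosts labelled male, number 4 for Colo201 hosts labelled female, number 1 for HCT116 hosts labelled male and number 3 for HCT116 hosts labelled female, each with a library L and a library R. Whether L and R are separate animals is not stated, so p-values rest on the spread among libraries and may reflect technical spread alone. Where 4 values are given for a line, they are in the order 2L, 2R, 4L and 4R for Colo201 and 1L, 1R, 3L and 3R for HCT116. In all 8 libraries the sex chromosome genes went against the label. Xist, expressed from the inactive X chromosome, stood at 253 to 366 CPM (counts scaled to library size) in libraries labelled male and at 0.275 to 0.805 in those labelled female, while the Y-linked Ddx3y stood at 0 and at 37.6 to 63.4 CPM. The terms labelled male and labelled female are therefore kept, and no direction by true sex is drawn from them. The libraries held 61347603 to 65457482 estimated counts, so depth was nearly even. A fragment was taken as 4 of these counts, and a level of 3 fragments, the floor used below, equals 0.183 to 0.196 CPM per library, for counting error only. Hepatocyte markers summed to 103120 to 158670 CPM, as the liver label states.

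A dividing cell passes from G1, where cyclin D and cyclin E kinases inactivate the RB proteins and release E2F, through DNA replication to mitosis. E2F raises the genes of replication, such as the MCM helicase, and a later wave of genes, held down in resting cells by the DREAM complex and raised by B-MYB and FOXM1, builds the mitotic spindle. Hepatocytes of the adult liver are mostly quiescent, and bulk liver RNA also carries the transcripts of endothelial, Kupffer, bile duct and blood cells. In bulk RNA, fewer cycling cells and less RNA per cycling cell cannot be told apart.

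Promoters are shown for 3 mitosis genes in which the Colo201 and HCT116 libraries did not overlap and for 1 further mitosis and 1 replication gene, because the groups carry different sequence elements. The windows are the 250 bases before the start of the gene, 5′ to 3′ on the strand of the gene, from RefSeq (GRCm38.p6). Capitals mark 3 elements searched on both strands: the CCAAT box (CCAAT), the cell cycle homology region used by DREAM (TTTGAA) and E2F sites (TTTCCCGC, TTTGGCGC, TTTCGCGC or TTTGCCGC). On the reverse strand the CCAAT box reads ATTGG, the homology region reads TTCAAA, and the 1 such E2F match shown reads GCGCGAAA.

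Mki67, chr7:135716380-135716629, minus strand: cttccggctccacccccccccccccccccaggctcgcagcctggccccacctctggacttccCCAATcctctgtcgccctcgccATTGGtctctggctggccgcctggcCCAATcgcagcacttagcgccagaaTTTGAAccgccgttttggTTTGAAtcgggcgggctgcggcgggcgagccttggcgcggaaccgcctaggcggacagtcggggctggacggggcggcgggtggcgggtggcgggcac

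Cdc20, chr4:118437344-118437593, minus strand: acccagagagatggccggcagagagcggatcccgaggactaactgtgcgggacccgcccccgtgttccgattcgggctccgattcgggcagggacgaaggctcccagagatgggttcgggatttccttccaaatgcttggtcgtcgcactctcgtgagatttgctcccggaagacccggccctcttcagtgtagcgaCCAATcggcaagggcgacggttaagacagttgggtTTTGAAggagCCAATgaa

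Ube2c, chr2:164769679-164769928, plus strand: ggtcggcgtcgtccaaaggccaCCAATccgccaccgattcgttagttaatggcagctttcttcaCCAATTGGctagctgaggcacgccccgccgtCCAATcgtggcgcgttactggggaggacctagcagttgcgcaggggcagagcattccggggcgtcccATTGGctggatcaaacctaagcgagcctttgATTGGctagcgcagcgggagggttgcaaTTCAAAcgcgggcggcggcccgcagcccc

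Cdk1, chr10:69352913-69353162, minus strand: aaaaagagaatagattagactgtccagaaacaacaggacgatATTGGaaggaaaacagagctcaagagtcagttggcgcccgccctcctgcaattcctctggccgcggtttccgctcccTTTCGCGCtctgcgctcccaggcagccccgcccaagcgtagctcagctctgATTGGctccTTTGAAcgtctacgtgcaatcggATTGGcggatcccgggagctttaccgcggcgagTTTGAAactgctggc

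Mcm6, chr1:128359706-128359955, minus strand: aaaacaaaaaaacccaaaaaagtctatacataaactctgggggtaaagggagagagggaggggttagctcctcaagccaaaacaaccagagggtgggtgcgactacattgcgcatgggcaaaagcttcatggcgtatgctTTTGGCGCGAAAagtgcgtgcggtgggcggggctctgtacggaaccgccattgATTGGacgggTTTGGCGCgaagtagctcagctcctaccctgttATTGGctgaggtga

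Positions are counted back from the start of the gene. In the Mki67 promoter, 3 CCAAT boxes lay between -188 and -137 and were followed by cell cycle homology regions from -116 to -111 and from -98 to -93. Cdc20 had the homology region from -18 to -13 between its 2 CCAAT boxes, and Ube2c had it from -29 to -24 on the reverse strand after 6 CCAAT boxes. Cdk1 carried both elements and an E2F site from -131 to -124. Mcm6 had E2F sites from -110 to -103, from -106 to -99 on the reverse strand, which overlap each other, and from -47 to -40, and no homology region in this window.

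The table of promoters held 28 of the 36 members, with windows of 300 bases that reach from 250 before the start to 50 after it. A CCAAT box was found in 11 of 12 mitosis promoters, 8 of 10 replication promoters and 3 of 6 G1 promoters, against 42.3% of the promoters of 17492 protein-coding genes. The homology region was found in 9 of 12, 1 of 10 and 0 of 6, against 18.5%. Both elements occurred together in 9 of 12 mitosis promoters, against 8.37%. An E2F site was found in 1 of 12, 4 of 10 and 0 of 6, against 3.29%. The mitosis group was thus the richer in the homology region and the replication group in these E2F sites. These are matches of letters, not binding sites, and nothing about a factor follows from a window without a match.

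Per length, the mitosis genes had the lowest levels, although the groups overlapped. Mean FPKM, a level scaled by transcript length and depth, over the 8 libraries ran from 0.0275 (Cenpf) to 0.875 (Aurka) for the mitosis genes, from 0.286 (Rrm2) to 7.38 (Pcna) for the replication genes, and from 0.424 (Ccne2) to 13.9 (Ccnd1) for the G1 genes. The median gene had 0.255 in the mitosis group, 1.15 in replication and 0.878 in G1. The median mitosis value rested on 14.25 fragments, 48 of the 128 values were under 10 fragments, and 6 were 0, whereas the median value was 115 fragments for replication and 78.5 for G1.

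**Figure D1:**
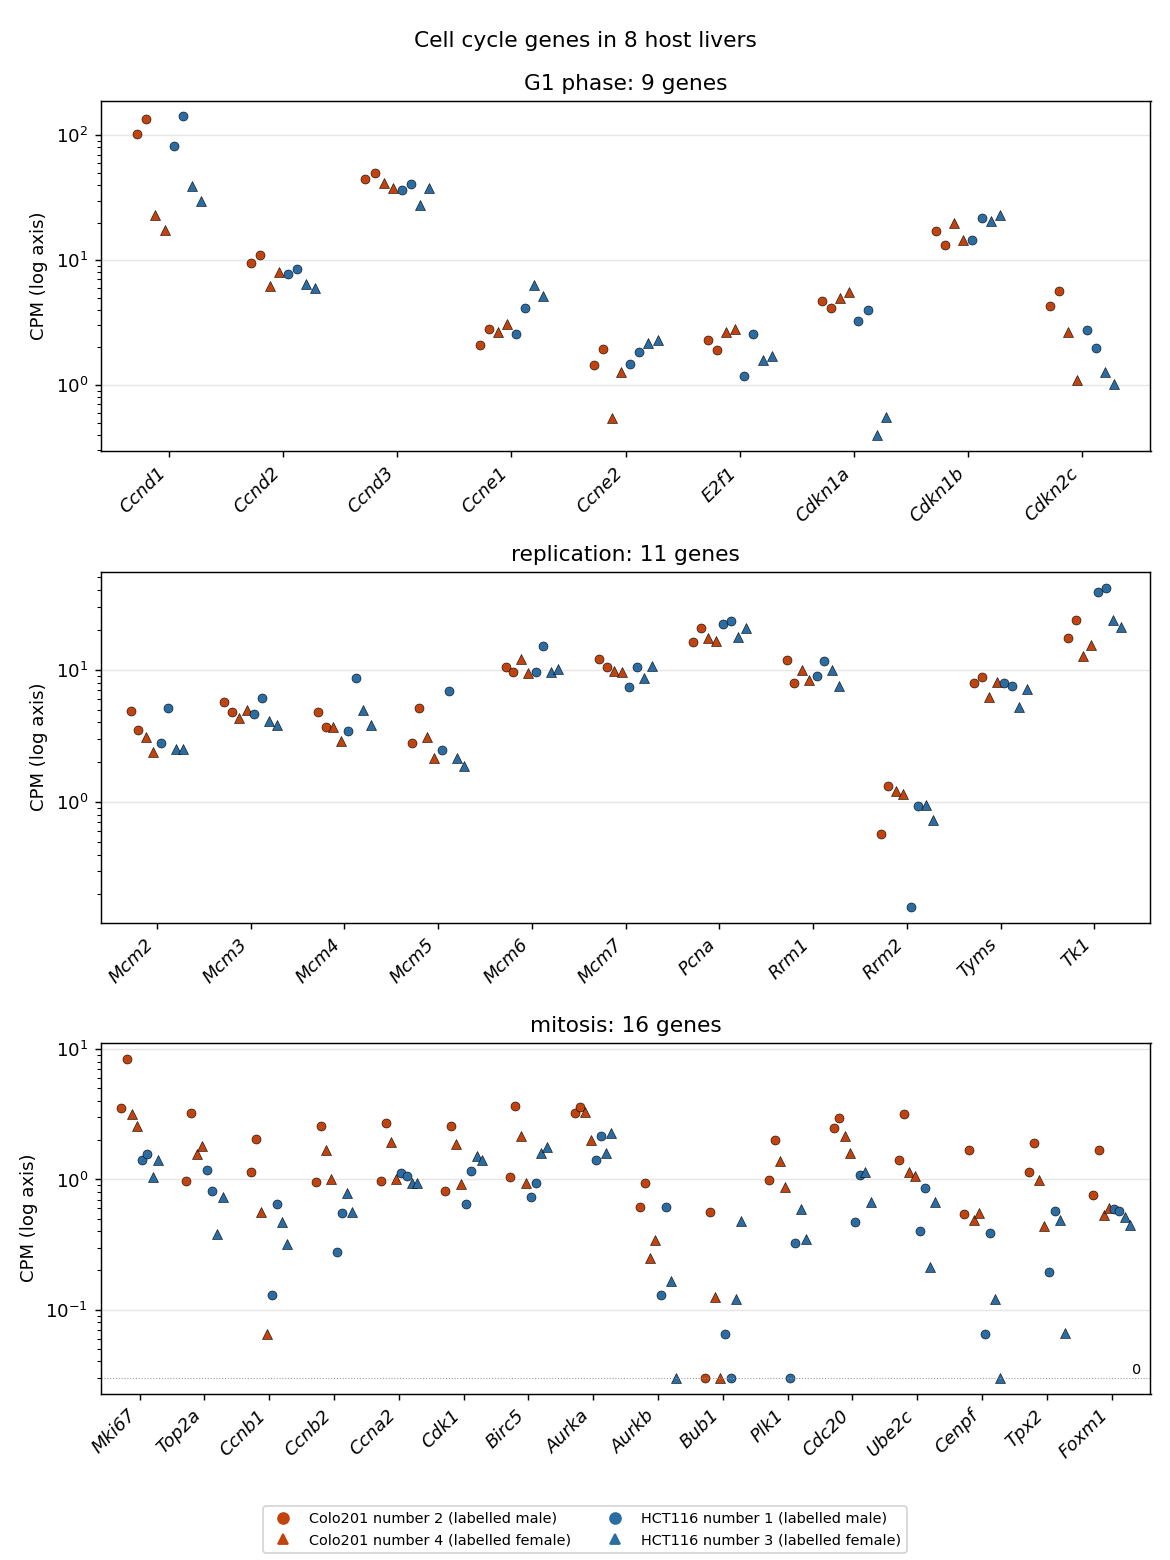
CPM on a log axis of each of the 36 genes in each of the 8 libraries, with the 9 G1, 11 replication and 16 mitosis genes in separate panels. Colour marks the line and shape the sex label, and values of 0 are drawn on the dotted line. In the mitosis panel Colo201 2R is the highest library for 16 of 16 genes, and in the replication panel HCT116 1R is the highest for 7 of 11.

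Between the lines, Mki67 was higher and Tk1 lower in Colo201 hosts, and the other 34 members did not pass (edgeR quasi-likelihood test with sex label as a covariate, Benjamini-Hochberg adjusted over all 17669 genes). Of all genes tested, 4.78% passed, 2.48% higher and 2.30% lower, so 2 of 36 members is close to the background. By DESeq2, 9 members were higher and 2 lower, where 13.4% of the 14928 genes it gave an adjusted p passed. Bub1 was the only member it gave none. By limma voom 2 were higher and 1 lower, where 5.68% of all genes passed. The 3 groups differed in how their fitted values lay. The median log2 fold change was 1.36 for mitosis, 0.06 for replication and 0.27 for G1, against 0.002 over all genes, and 16 of 16 mitosis, 7 of 11 replication and 5 of 9 G1 genes had a fitted value above 0, against 50.1% of all genes. Bub1 lay under the floor on average in both lines and its fitted value is not read here. Without it, 15 of 15 mitosis genes were above 0, with a median of 1.38.

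The mitosis genes as a group had their highest values in Colo201 hosts, with 1 gene past the threshold. Their CPM summed to 20.6, 43.8, 23.3 and 15.8 in Colo201 and to 8.81, 13.4, 11.7 and 12.1 in HCT116. The lowest Colo201 library thus stood above the highest HCT116 library. The means were 25.9 ± 12.4 (SD, n = 4) and 11.5 ± 1.93 (SD, n = 4), a ratio of 2.25, or 1.73 without Colo201 2R. Without Mki67 the other 15 genes summed to 13.2 to 35.4 CPM in Colo201 and 7.40 to 11.8 in HCT116. An unadjusted p under 0.05 with a higher value in Colo201 was found for 9 of 16 mitosis genes, against 11.0% of all genes. The lines did not overlap, with Colo201 higher, for 6 of 16, against 6.27% of all genes. No p is given for the sum, since its members were chosen with results of these libraries known.

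**Figure D2:**
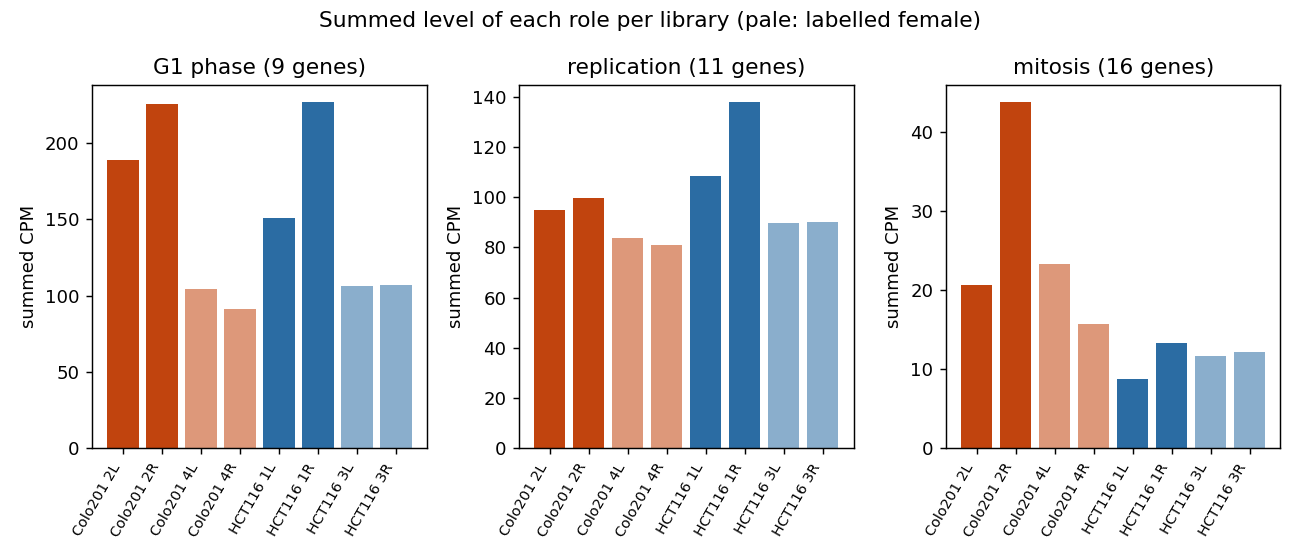
Summed CPM of the 9 G1, 11 replication and 16 mitosis genes in each of the 8 libraries, with a bar per library, colour for the line and pale bars for the label female. The mitosis sums lie between 15.8 and 43.8 in Colo201 and between 8.81 and 13.4 in HCT116, while the G1 and replication sums are higher in libraries labelled male and overlap between the lines.

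Mki67, which encodes the Ki-67 protein that coats mitotic chromosomes and marks cycling cells, lies on chromosome 7 (GRCm38, chr7:135689784-135716361, minus strand). It stood at 3.54, 8.46, 3.21 and 2.58 CPM in Colo201 and at 1.41, 1.58, 1.05 and 1.42 in HCT116. All Colo201 libraries were above all HCT116 libraries, and 2R was far above the rest. The log2 fold change was 1.62 (SE 0.32, adjusted p = 0.0301 by edgeR), or 1.24 (adjusted p = 0.0419) without Colo201 2R. The call was lost without Colo201 4L (adjusted p = 0.0780), HCT116 1L (0.0958), HCT116 1R (0.0954) or HCT116 3L (0.0914), each time with a log2 fold change of at least 1.5. It was also lost with no covariate (adjusted p = 0.0691), with the libraries of a title number summed (0.407), and by limma on log2(FPKM + 1) (0.140) and log2(FPKM + 0.1) (0.0823).

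Cdc20, Ube2c and Ccnb2 came next among the mitosis genes with the lines apart. Cdc20, an activator of the anaphase-promoting complex, stood at 2.47, 2.95, 2.17 and 1.59 CPM in Colo201 and at 0.469, 1.08, 1.14 and 0.667 in HCT116. The 4 Colo201 values lay above the 4 HCT116 values, with a log2 fold change of 1.43 (SE 0.35) that missed the threshold (adjusted p = 0.0570 by edgeR). Cdc20 shares 53 exon bases with Elovl1 on the opposite strand, which rose by 0.66 (adjusted p = 0.0209). The kit marks strand, but whether the counting did is not given in the sources used here, and overlapping genes may share reads.

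Ube2c, the ubiquitin-conjugating enzyme of that complex, stood at 1.41, 3.16, 1.14 and 1.07 CPM in Colo201 and at 0.404, 0.866, 0.213 and 0.667 in HCT116. Its log2 fold change was 1.59 (SE 0.46, adjusted p = 0.0896 by edgeR). Colo201 2R was again apart, and the other 3 Colo201 values still lay above HCT116. Ccnb2, a B-type cyclin that partners Cdk1, had 0.948, 2.57, 1.69 and 1.0 CPM against 0.275, 0.557, 0.790 and 0.567. The log2 fold change of Ccnb2 was 1.52 (SE 0.46, adjusted p = 0.0997 by edgeR).

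Plk1 and Cenpf were the scarce members of this set. Plk1, a kinase of mitotic entry and spindle assembly, stood at 0.999, 2.0, 1.38 and 0.875 CPM in Colo201 and at 0, 0.325, 0.592 and 0.350 in HCT116. Cenpf, a kinetochore protein, stood at 0.542, 1.68, 0.485 and 0.551 against 0.0647, 0.387, 0.122 and 0 CPM, so 3 of its 4 HCT116 values were under the floor of 3 fragments. Both genes had lines that did not overlap, from at most 33.8 fragments in any library. Their log2 fold changes were 2.17 (SE 0.85, adjusted p = 0.182 by edgeR) for Plk1 and 2.62 (SE 0.87, adjusted p = 0.125) for Cenpf.

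In the other 10 mitosis genes the lines overlapped. Top2a, the topoisomerase that untangles sister chromatids, had 0.982, 3.26, 1.58 and 1.80 CPM in Colo201 against 1.18, 0.819, 0.380 and 0.734 in HCT116, with a log2 fold of 1.34 (SE 0.42, adjusted p = 0.109 by edgeR). Aurka, a spindle pole kinase, and Tpx2, which activates it at spindle microtubules, had log2 fold changes of 0.68 and 1.68 (adjusted p = 0.172 for both). These 3 genes are the remaining mitosis members with an unadjusted p under 0.05. Cdk1, the kinase that drives mitosis, had 0.43, with 0.813 to 2.60 CPM in Colo201 and 0.647 to 1.5 in HCT116. Its cyclins Ccna2 and Ccnb1 had 0.70 and 0.89. Foxm1, a transcription factor of the mitotic genes, had 0.65, and Birc5 and Aurkb, of the chromosomal passenger complex, had 0.68 and 1.38. These 6 genes had adjusted p-values from 0.309 to 0.639. Aurkb held 4 to 15.8 fragments in Colo201 and 0 to 10 in HCT116, and Ccnb1 held 1 to 34.8 and 2 to 10.5. Tpx2 held 6.8 to 32.2 and 1 to 9.2, so the folds of Aurkb, Ccnb1 and Tpx2 are poorly fixed. Bub1, a spindle checkpoint kinase, had 0 to 9.5 fragments in the 8 libraries, too few for a fold.

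**Figure D3:**
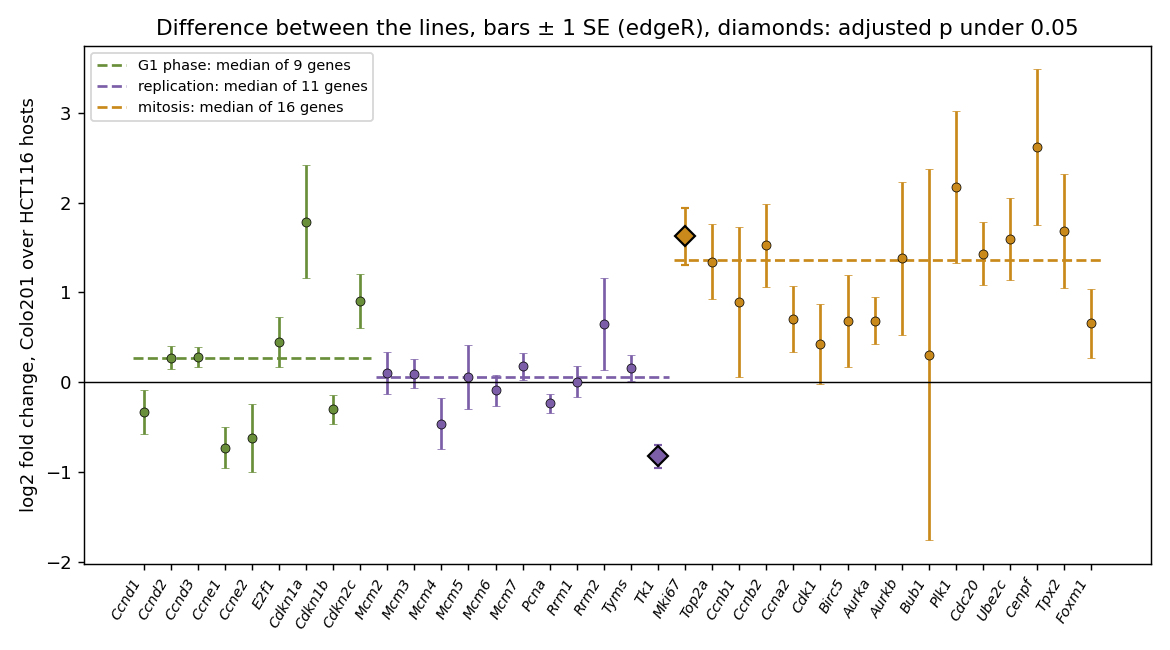
Log2 fold change of Colo201 over HCT116 hosts for each of the 36 genes, with bars of 1 SE from edgeR, a dashed line at the median of each group and diamonds for adjusted p under 0.05. All 16 mitosis points lie above 0 around a median of 1.36, the replication points scatter around 0.06, and only Mki67 and Tk1 passed. The point of Bub1 rests on 9.5 fragments or fewer per library.

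The mitosis genes shared their highest library. It was Colo201 2R for 16 of 16 genes, where that library was the highest for 13.1% of all genes tested. Without that library, 14 of 16 mitosis genes kept a fitted value above 0, with a median of 1.03. These figures count Bub1, whose own fitted value is not read. Of the 16, 4 had an unadjusted p under 0.05, and 1 passed. The shares of all genes in the fit without that library are not given here, so these counts are not read as above the background. Colo201 2L, 4L and 4R, at 15.8 to 23.3 summed CPM, still lay above all HCT116 libraries. Kupffer cell markers (8 genes) summed to 481 CPM in Colo201 2R, the highest of the 8 libraries, with 171 to 443 in the other Colo201 libraries and 281 to 431 in HCT116. Sinusoidal endothelial markers (8 genes) summed to 326 CPM in 2R, 190 to 308 in the other Colo201 libraries and 209 to 340 in HCT116. Erythroid markers (7 genes) summed to 470 CPM in 2R, the lowest Colo201 value, with 611 to 936 in the others and 412 to 648 in HCT116. Neutrophil markers (7 genes) summed to 1.73 to 4.84 CPM in Colo201 and 2.43 to 5.67 in HCT116. Cholangiocyte markers (6 genes) summed to 63.0 CPM in Colo201 4R, 27.7 to 30.2 in the other Colo201 libraries and 29.6 to 38.7 in HCT116. In 4R, Krt19 held 399.8 fragments and Epcam 185, against 7.5 to 36.5 and 13.8 to 22.8 in the other Colo201 libraries. Krt7 and Cftr, at 12.2 and 8.5 fragments, were also at their Colo201 highest there. Sox9 (35.5) lay within the other Colo201 values (30.5 to 51.2), and Spp1 (330.8) was at its Colo201 lowest. The sum in 4R therefore does not stand for the whole list. The part of these cell types in the mitosis values was not tested. The lymphocyte markers Cd3e, Ms4a1 and Nkg7 were at 0 in all 8 libraries. Among the tested markers of these and the other liver cell types, Reln of stellate cells (0.89, adjusted p = 0.0184 by edgeR) and Apoa1 of hepatocytes (0.47, adjusted p = 0.0167) passed between the lines. Neither stands for its list. Of 7 stellate and fibroblast markers 5 had a fitted value above 0, with a median of 0.17, and of 7 hepatocyte markers 4, with a median of 0.18. The hepatocyte marker Hnf4a was lower, at 563 to 645 CPM in Colo201 and 653 to 730 in HCT116.

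Within each sex label the comparison has 2 libraries against 2. Among libraries labelled male, 0 of 36 members passed, where 0.232% of all genes did, and 9 members had an unadjusted p under 0.05 by edgeR, 8 of them higher, where 13.1% of all genes had one in either direction. Among those labelled female, 1 member passed, where 0.492% of all genes did, and 3 were higher and 4 lower at an unadjusted p under 0.05, where 14.1% of all genes had one in either direction. For Mki67 the log2 fold change was 2.01 (SE 0.43, adjusted p = 0.147 by edgeR) in the labelled male and 1.23 (SE 0.43, adjusted p = 0.262) in the labelled female libraries. The median of the 15 mitosis genes without Bub1 was 1.80 and 1.06, and 15 of 15 and 12 of 15 lay above 0. In the interaction test, which asks whether the lines differ by another amount in each label, 0 of 36 members passed by edgeR, where 0.0283% of all genes did, and 1 had an unadjusted p under 0.05, where 4.10% of all genes had.

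The replication genes showed no common shift between the lines, and their 1 call was Tk1. Tk1, the thymidine kinase that salvages thymidine for DNA synthesis, lies on chromosome 11 (GRCm38, chr11:117815526-117826092, minus strand). It stood at 17.5, 23.6, 12.8 and 15.4 CPM in Colo201 and at 38.9, 41.8, 23.9 and 21.2 in HCT116. Within each sex label both Colo201 libraries lay below both HCT116 libraries, while across labels Colo201 2R overlapped HCT116 3R. The log2 fold change was -0.83 (SE 0.13, adjusted p = 0.0162 by edgeR). The call was lost without Colo201 4L (adjusted p = 0.0531), HCT116 1L (0.0515), HCT116 1R (0.0538) or HCT116 3L (0.0573), with no covariate (0.141), and with the libraries of a title number summed (0.488). Tk1 was also higher in labelled male libraries, by 0.70 (SE 0.13, adjusted p = 0.0228), a call lost when any 1 of 6 libraries was left out, all but Colo201 2L and 4R. It shares 83 exon bases with Afmid on the opposite strand, whose log2 fold change between the lines was -0.37 (adjusted p = 0.108).

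The other 10 replication genes had log2 fold changes from -0.46 (Mcm4) to 0.65 (Rrm2), none with an unadjusted p under 0.05 by edgeR. They also did not pass by DESeq2 or limma voom. Their sum without Tk1 was 65.7 to 77.5 CPM in Colo201 and 65.9 to 96.0 in HCT116. The 6 MCM genes encode the replicative helicase, and Mcm2, Mcm3, Mcm5, Mcm6 and Mcm7 lay between -0.09 and 0.18. Mcm6, with the E2F sites shown above, had 10.4, 9.63, 12.1 and 9.51 CPM in Colo201 and 9.60, 15.3, 9.69 and 10.1 in HCT116. Apart from HCT116 1R these values lay between 9.51 and 12.1. Pcna, the sliding clamp of the polymerase, had 16.3 to 20.7 CPM in Colo201 and 17.7 to 23.2 in HCT116, with -0.23 (SE 0.11, adjusted p = 0.244). The 2 ribonucleotide reductase subunits, which supply deoxynucleotides, had 0.004 (Rrm1) and 0.65 (Rrm2, SE 0.51), and Tyms, which makes thymidylate, had 0.15.

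HCT116 1R was the highest library for 7 of the 11 replication genes, where it was the highest for 10.3% of all genes. Mcm2 stood at 5.15 CPM there and at 2.52 to 2.80 in the other HCT116 libraries, and Mcm5 at 6.93 and at 1.89 to 2.49. Its mitosis sum, 13.4 CPM, was also the highest of the 4 HCT116 libraries. The ratio of the replication sums, Colo201 over HCT116, was 0.843 with all libraries and 0.935 without HCT116 1R. The library that was highest for most replication genes and the one that was highest for the mitosis genes thus came from hosts of different lines.

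Among the 9 G1 genes, Ccnd1 passed between the sex labels. Between the lines 0 of the 9 passed by edgeR or limma voom. By edgeR 4 had an unadjusted p under 0.05, where 21.7% of all genes had, and by DESeq2 Cdkn1a and Cdkn2c were higher and Ccne1 lower. Ccnd1, cyclin D1, which carries growth factor signals into the cycle, stood at 103 and 135 CPM in Colo201 2L and 2R, at 23.0 and 17.6 in 4L and 4R, at 81.2 and 141 in HCT116 1L and 1R, and at 39.4 and 29.5 in 3L and 3R. All libraries labelled male lay above all labelled female. The log2 fold change between labels was 2.12 (SE 0.25, adjusted p = 0.00326 by edgeR), where 4.02% of all genes passed, and it passed whichever library was left out. Ccnd1 and Tk1 were the 2 of 36 members that passed between labels. Between the lines Ccnd1 had -0.33 (SE 0.25, adjusted p = 0.483). The gene lies on chromosome 7 (GRCm38, chr7:144929931-144939925, minus strand) and shares 1100 exon bases with LTO1 on the opposite strand, which differed between labels by -0.05 (adjusted p = 0.884).

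Markers of other cell types moved with the sex label too. Of 8 sinusoidal endothelial markers, Stab2, Pecam1, Cdh5 and Eng were higher in labelled male libraries, by 0.48 to 0.68 on the log2 scale, and 8 of 8 had a fitted value above 0. Of 8 Kupffer markers 1 passed, C1qa (0.66, adjusted p = 0.0439 by edgeR), and 8 of 8 were above 0. The endothelial sums were 308, 326, 340 and 321 CPM in the labelled male libraries Colo201 2L and 2R and HCT116 1L and 1R, and 256, 190, 219 and 209 in the labelled female libraries Colo201 4L and 4R and HCT116 3L and 3R, without overlap. Of 6 tested erythroid markers, Alas2 was lower in labelled male libraries (-2.93, adjusted p = 7.79e-05 by edgeR), while 3 of the 6 had a fitted value above 0 and the list median was 0.06. The part of these cell types in the difference of Ccnd1 and Tk1 between labels was not tested. From the other cell cycle lists, Cdkn1c, which encodes the kinase inhibitor p57, and Lig1, the ligase that joins Okazaki fragments, were higher in labelled male libraries, by 1.81 (adjusted p = 0.00319 by edgeR) and 0.67 (adjusted p = 0.0458). Cdkn1c had 5.65, 7.95, 1.88 and 1.3 CPM in Colo201 and 4.96, 5.13, 1.61 and 1.89 in HCT116, so the labels did not overlap. Cdk6, a partner of D cyclins, and Egfr, the receptor of epidermal growth factor, were lower, with -0.67 (adjusted p = 0.0048) and -1.56 (adjusted p = 0.027). Each was the only call of its list, among 4 tested CDK inhibitors (Cdkn1c), 19 licensing and fork genes (Lig1), 18 RB, E2F and DREAM genes (Cdk6) and 11 mitogen and receptor genes (Egfr). Of 24 kinetochore, spindle and cytokinesis genes and of 15 p53 targets 0 passed. Between labels 4.02% of all genes passed, so no shift of these lists is read from the calls.

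Cdkn1a, which encodes the kinase inhibitor p21 and is a target of p53, differed between the lines in the libraries labelled female. It lies on chromosome 17 (GRCm38, chr17:29090976-29100727, plus strand). It stood at 4.71, 4.11, 4.96 and 5.59 CPM in Colo201 2L, 2R, 4L and 4R, at 3.25 and 4.0 in HCT116 1L and 1R, and at 0.395 and 0.551 in HCT116 3L and 3R. The last 2 libraries held 6.5 and 8.2 fragments, against 50.2 to 86.2 in the other 6, so number 3 stood apart and the other 3 numbers were close together. In labelled female libraries the log2 fold change was 3.48 (SE 0.29, adjusted p = 0.00563 by edgeR). It still passed without any 1 of libraries 3L, 3R, 4L and 4R (adjusted p = 0.0178 to 0.0395), where the lone library left is assumed to vary like the other groups. In labelled male libraries it was 0.28 (SE 0.26, adjusted p = 0.697). The interaction was 3.20 (SE 0.38), with an unadjusted p of 4e-05 and an adjusted p of 0.118, so the difference between the labels did not pass. Over both labels the lines did not overlap, and the log2 fold change was 1.79 (SE 0.63, adjusted p = 0.145).

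**Figure D4:**
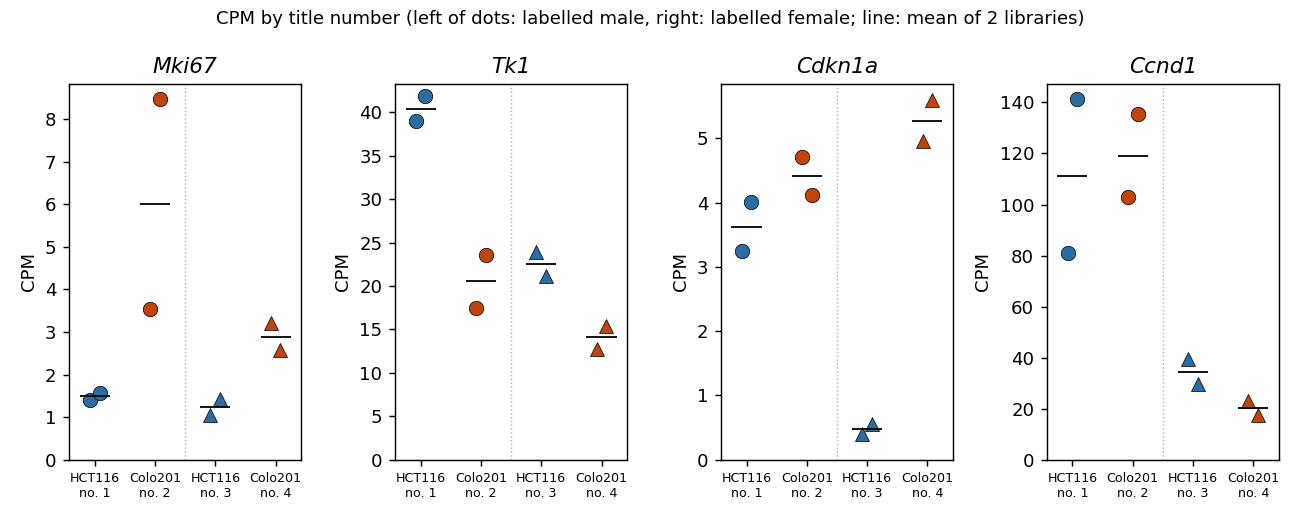
CPM of Mki67, Tk1, Cdkn1a and Ccnd1 in the 2 libraries of each title number, with a line at their mean, labelled male libraries left and labelled female libraries right of the dotted line. Mki67 is higher and Tk1 lower in Colo201 within each label, Cdkn1a is low in number 3 only, and Ccnd1 is high in numbers 1 and 2.

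The other G1 genes did not pass between lines or labels. Cdkn2c, the CDK4 and CDK6 inhibitor p18, stood at 4.32, 5.65, 2.66 and 1.10 CPM in Colo201 and 2.78, 1.96, 1.26 and 1.02 in HCT116, and its log2 fold change was 0.90 (SE 0.30, adjusted p = 0.126 by edgeR) between lines and 1.23 (SE 0.30, adjusted p = 0.0612) between labels. It passed between lines without Colo201 4R (1.13, adjusted p = 0.0412). Cyclin E1, which starts replication, pointed down: Ccne1 stood at 2.08 to 3.08 CPM in Colo201 and 2.57 to 6.27 in HCT116, with -0.73 (SE 0.22, adjusted p = 0.105). Ccne2 had -0.62 and the inhibitor Cdkn1b, p27, had -0.30. The other D cyclins Ccnd2 and Ccnd3 had 0.27 and 0.28, and E2f1, a transcription factor of the replication genes, had 0.45. The summed G1 level was 91.5 to 226 CPM in Colo201 and 106 to 227 in HCT116, and most of its spread was Ccnd1. Without Ccnd1 it was 73.9 to 90.1 and 66.5 to 85.5.

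Other genes of the same pathways were taken from lists of named genes. Of 24 tested kinetochore, spindle and cytokinesis genes 0 passed by edgeR, 5 had an unadjusted p under 0.05, all higher in Colo201, where 11.0% of all genes were higher at that p, and 22 had a fitted value above 0 with a median of 0.54. By DESeq2 2 passed, Cenpa and Racgap1, and by limma voom 0. Counts by these tools, here and in the lists below, stand beside 13.4% of all genes passing by DESeq2 and 5.68% by limma voom. Racgap1, a cytokinesis regulator, stood at 0.745, 1.48, 0.720 and 0.859 CPM in Colo201 and at 0.194, 0.278, 0.349 and 0.300 in HCT116. Its log2 fold change was 1.75 (SE 0.42, adjusted p = 0.0519 by edgeR) and the lines did not overlap. The HCT116 values of Racgap1 are 3 to 5.8 fragments, at or just above the floor of 3, so the size of the fold is poorly fixed. Cenpa, the centromeric histone, had 5.89, 5.68, 5.87 and 4.36 CPM against 3.40, 3.91, 2.89 and 3.80, with 0.64 (SE 0.16, adjusted p = 0.0658). In Cenpa the lines were apart without 2R standing out, at 47.5 to 95.8 fragments per library. Cdca3, a trigger of mitotic entry, had 0.66 (SE 0.21, adjusted p = 0.114).

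Of 19 tested genes of origin licensing and the replication fork, 0 passed by edgeR, 1 had an unadjusted p under 0.05, Gins2 passed by DESeq2 and 0 by limma voom. Their median was -0.05, beside 0.06 for the replication members. Gins2, a helicase subunit, had 6.09, 0.831, 4.82 and 2.87 CPM in Colo201 and 1.0, 1.19, 1.44 and 0.434 in HCT116, so it was low in Colo201 2R, where the mitosis genes were highest. Its log2 fold change was 1.84 (SE 0.60, adjusted p = 0.119 by edgeR). Of 18 genes of RB, E2F and DREAM control 0 passed by edgeR, and their median was -0.05. An unadjusted p under 0.05 was found for 5 of them, which is near the 21.7% of all genes in either direction. Of these 5, 4 were lower, where 10.7% of all genes were lower at that p. By DESeq2 1 passed, E2f3, and by limma voom 0. E2f3 had -0.45 (SE 0.13, adjusted p = 0.0829), Lin54 had -0.32, and E2f2 had 1.19.

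Of 4 tested further CDK inhibitor genes, Cdkn3 rose, with a log2 fold of 2.71 (SE 0.62) and an adjusted p of 0.0468 by edgeR. Its product is a phosphatase that dephosphorylates CDKs. It stood at 0.694, 1.90, 0.845 and 0.405 CPM in Colo201 and at 0.129, 0.124, 0.0608 and 0.234 in HCT116. The HCT116 values are 1 to 3.5 fragments and 3 of the 4 lie under the floor, so the size of the fold is poorly fixed. The call was lost when any 1 of 6 libraries was left out, all but Colo201 4R and HCT116 3R. Of 15 p53 target genes, Ccng1, an atypical cyclin, rose by 0.39 (SE 0.08, adjusted p = 0.0376), at 38.6, 33.7, 38.8 and 38.8 CPM in Colo201 and 26.1, 28.3, 29.8 and 30.5 in HCT116. That call was lost when any 1 of the 8 libraries was left out. Of the 15, 5 were higher and 1 lower at an unadjusted p under 0.05, where 11.0% of all genes were higher and 10.7% lower. For 4 of the 15 the lines did not overlap with Colo201 higher, against 6.27% of all genes. By DESeq2 4 passed, all higher, Ccng1, Aen, Eda2r and Phlda3, and by limma voom Ccng1. Aen, a nuclease, had 30.4, 26.2, 29.7 and 28.6 CPM in Colo201 and 19.7, 20.8, 20.2 and 26.0 in HCT116, with 0.41 (SE 0.11, adjusted p = 0.0664 by edgeR). Eda2r, a receptor of the TNF receptor family, had 0.86 (SE 0.26, adjusted p = 0.101), and Phlda3, which restrains AKT, had 1.38 (SE 0.42, adjusted p = 0.106). Phlda3 held 13.5 and 6.8 fragments in HCT116 3L and 3R, 29 and 33.8 in HCT116 1L and 1R, and 36.8 to 56.5 in Colo201. Of 11 genes of hepatocyte mitogens and their receptors 0 passed by edgeR, 3 had an unadjusted p under 0.05, near the 21.7% of all genes, and by DESeq2 Hgf and Met were lower. Hgf, the hepatocyte growth factor, had 2.29, 2.23, 1.36 and 3.18 CPM in Colo201 and 4.03, 6.34, 5.53 and 3.77 in HCT116, with -1.12 (SE 0.29, adjusted p = 0.0664 by edgeR). It passed by limma voom. Its receptor Met had -0.55 (SE 0.18, adjusted p = 0.124).

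**Figure D5:**
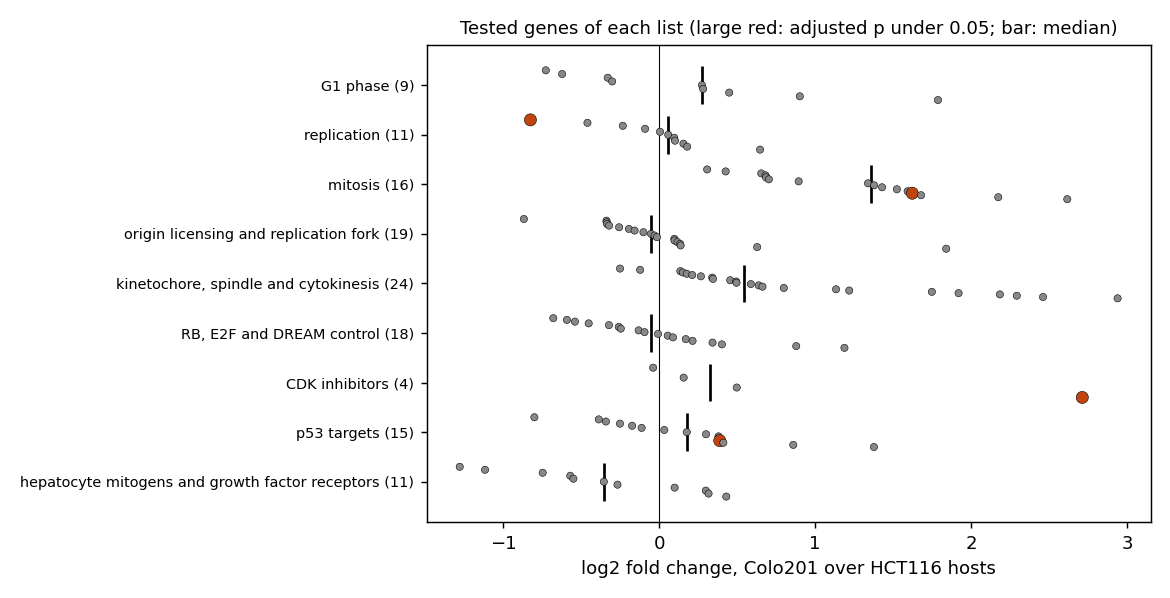
Log2 fold change of Colo201 over HCT116 hosts for each tested gene of the 3 member groups and the 6 other lists, with a point per gene, a bar at the median and large red points for adjusted p under 0.05. The mitosis median, with Bub1 counted, is 1.36 and that of the kinetochore, spindle and cytokinesis genes 0.54. The licensing and fork genes and the RB, E2F and DREAM genes both have -0.05. Red points are Mki67, Tk1, Cdkn3 and Ccng1.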

How the data were processed

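Polyadenylated RNA of host liver was measured in 8 libraries, 4 per xenograft line. The kit was TruSeq stranded mRNA, per the labels' protocols. HISAT2, StringTie and GRCm38 (mm10) are named per the submitters' processing notes; versions, annotation and strand setting are not given in the sources consulted. The deposited estimated counts are whole numbers, tested as they stand; the authors' FPKM table served for levels per length and in alternatives. Among counts of 1 to 16, 43.9 to 45.0% were multiples of 4, so a fragment was taken as 4 counts. Gene names and GRCm38 positions are from GENCODE vM21; 55141 of 55401 identifiers matched.

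TMM scaling and the filterByExpr filter were applied. edgeR 4.0.16 (R 4.3.3) fitted line and sex label, with 5 residual degrees of freedom; tests within a label and the interaction used 4 means, with 4. P-values were two-sided and Benjamini-Hochberg adjusted over 17669 genes, with a threshold of 0.05. All 36 members are named; of each other list, every gene that passed between lines and otherwise up to 3 with the smallest p, and some genes that passed by another tool or between labels, named after their values were seen. The members and lists were chosen with earlier results of these data known. DESeq2 1.42.0, limma 3.58.1 voom, other scalings, filters, no covariate, counts divided by 4, log2(FPKM + 1) and log2(FPKM + 0.1), libraries summed by title number, and leaving out each library were tried. The fits were tested on simulated data. Each simulated library was drawn independently, so the simulation cannot show how the tests behave if L and R are not separate animals.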

Additional observations from a re-analysis of the deposited data

Results flagged for a closer look

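In 6 members and 1 other listed gene, a single library lay far from the other 3 of its line, by a rule that flags about 1 in 20 groups by chance; 82 groups were examined and 7 were flagged. HCT116 1R was the highest HCT116 library for Mcm2 (5.15 CPM, others 2.52 to 2.80), Mcm5 (6.93 CPM, others 1.89 to 2.49) and Mcm6 (15.3 CPM, others 9.60 to 10.1), 3 subunits of the replicative helicase. Colo201 2R was the highest Colo201 library for Mki67 (8.46 CPM, others 2.58 to 3.54), Ube2c (3.16 CPM, others 1.07 to 1.41) and Cenpf (1.68 CPM, others 0.485 to 0.551), 3 mitosis genes. Colo201 2R was also the lowest Colo201 library for the p53 target Ccng1 (33.7 CPM, others 38.6 to 38.8). Genes of a group share their libraries, so these are not 7 separate events.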

How the results depend on the processing

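No call of a member reversed its direction under any alternative run. Between the lines, 439 genes higher and 406 lower in Colo201 became 88 and 67 with no covariate, 970 and 1023 by DESeq2, and 0 and 0 with libraries summed by title number; with log2(FPKM + 1), 292 were higher. Leaving out a library gave 89 to 267 higher and 93 to 282 lower. Members past the threshold were 1 higher and 1 lower; they were 9 and 2 by DESeq2, 2 higher by limma voom, 2 higher with at least 1 CPM in 4 libraries, and 0 and 0 with no covariate and with summed libraries; log2(FPKM + 1) and log2(FPKM + 0.1) gave 0 higher. Leaving out a library gave 0 to 2 members higher, with 2 only without Colo201 4R, and 0 to 1 lower.

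Leaving out a library gave 148 to 303 genes higher and 166 to 336 lower in labelled male against labelled female libraries, with 1 to 2 members higher; 0 to 28 higher and 0 to 21 lower between lines in labelled male, 8 to 36 and 7 to 43 in labelled female libraries; and 0 to 10 and 0 to 9 for the interaction. Ratios of sums without a library were 0.868 to 1.26 for G1, 0.801 to 0.935 for replication and 1.73 to 2.55 for mitosis. The cause of these changes was not tested. No paired analysis was possible because the lines share no title numbers. Depth limits the mitosis genes most, with 48 of 128 values under 10 fragments.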
